A study of Mus musculus with 6 samples.

Results

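The genes described here are 10 p53 targets and inhibitors of cyclin-dependent kinases (CDKs): Cdkn1a, Cdkn2a, Cdkn2b, Mdm2, Ccng1, Perp, Bbc3, Btg2, Zmat3 and Phlda3. Every probe set (short probes read together as 1 measure of a transcript) annotated to 1 of these symbols was used. That gave 16 of 45037 probe sets and 10 of the 18193 named genes on the array. A filter kept the brighter 50% of probe sets for testing, and 15 of the 16 passed it, with at least 1 for each gene. Where a gene had several, the probe set with the highest mean intensity represents it and the others are given beside it.

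The transcription factor p53 is held low in unstressed cells by the ubiquitin ligase Mdm2, which is itself a p53 target, and it accumulates after DNA damage and other stress. It then switches on genes that stop the cell cycle, above all Cdkn1a (p21), and genes that favour cell death. Cdkn2a and Cdkn2b lie side by side and encode INK4 inhibitors of CDK4 and CDK6, and Cdkn2a also encodes Arf, which blocks Mdm2. In mouse embryonic fibroblasts these genes are known to accumulate as cultures approach senescence.

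The arrays measured total RNA of primary fibroblasts from B6 mouse embryos (the labels of all but wild type 1 name the strain), with 2 embryos in each of 3 genotypes. These were Cas exon 2+/+ (wild type), Cas exon 2+/∆ (heterozygous) and Cas exon 2∆/∆ (homozygous), all from crosses between heterozygotes and taken at 12.5 days post coitum. Cas (p130Cas, gene Bcar1) is a docking protein of cell adhesions, and the deletion was in the germ line, so every cell type of an embryo carried it. The cultures came from embryos without heads and inner organs and were grown in medium with fetal calf serum, with no passage number and no further treatment given in the labels. The stated aim was to set homozygous cells against both other genotypes. Arrays are called by genotype and by the number in their titles, and these numbers are used here as names only.

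Levels below are log2 intensities after quantile normalization, and a difference is a difference of such levels. All 10 fibroblast markers passed the filter, but their levels were uneven between arrays. Vimentin (Vim) lay between 13.68 and 13.81 on the 6 arrays, whereas the matrix proteoglycans Lum (7.39 to 12.32) and Dcn (8.76 to 12.11) and the receptor Pdgfra (6.80 to 10.44) each had its minimum in wild type 1 and its maximum in homozygote 1. Col3a1 had its extremes in the same arrays. Thy1 was instead lowest in homozygote 1 (11.50), while Col1a1 and Col1a2 were highest in heterozygote 2 and Pdgfrb in heterozygote 1. The median deviation of the list from its means was -0.77 in wild type 1 and -0.11 to 0.25 on the others. It was highest in heterozygote 2, and the part of this unevenness in the results below was not tested. Bcar1 lay at 9.37 and 8.42 (wild type), 8.19 and 8.32 (heterozygotes) and 8.08 and 8.43 (homozygotes) (difference of homozygotes from the others -0.32, SE 0.31, limma adjusted p = 1). Its probe sets cannot be placed relative to exon 2 here, and its level is no check of the deletion. Both homozygotes and wild type 2 had high Y-linked Eif2s3y (8.37 to 8.76), while wild type 1 and both heterozygotes had low values (1.24 to 3.61), so that genotype and sex cannot be told apart between homozygotes and heterozygotes. Of 12 macrophage markers, 11 passed the filter. Summed over the 12, the intensity was 2781 and 6723 in wild-type cells, 5228 and 4569 in heterozygous ones, and 14071 and 6930 in homozygous ones. Homozygote 1 was above every other array. Lyz2 was the brightest marker on each array (12.87 in homozygote 1, 10.54 to 11.78 elsewhere) and gave much of each sum. The median deviation of the 11 was also highest in homozygote 1 (1.23, and -1.10 to 0.28 elsewhere). In such bulk RNA, fewer cells of a type and less RNA per cell cannot be told apart.

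The p53 protein binds DNA as a tetramer, at a pair of adjacent elements of 10 bases each. RefSeq (GRCm38.p6) gave 12 windows, each from 250 bases before to 50 bases after an annotated transcript start, for 8 of the 10 genes, and Perp and Zmat3 had none. Of these windows, 3 held an exact p53 element of 10 bases, a motif that reads the same on both strands and occurred in 8.36% of all 32851 windows. A full site of 20 bases was 2 elements without a gap and with at most 2 mismatches. The C at position 4 and the G at position 7 of each element had to match. Such a site was present in 2 of the 12 windows against 0.326% of all. The 3 windows that held an element are shown because their letters match the p53 motif, with single elements and full sites in capitals:
Cdkn1a, upstream start, chr17:29090729-29091028, plus strand: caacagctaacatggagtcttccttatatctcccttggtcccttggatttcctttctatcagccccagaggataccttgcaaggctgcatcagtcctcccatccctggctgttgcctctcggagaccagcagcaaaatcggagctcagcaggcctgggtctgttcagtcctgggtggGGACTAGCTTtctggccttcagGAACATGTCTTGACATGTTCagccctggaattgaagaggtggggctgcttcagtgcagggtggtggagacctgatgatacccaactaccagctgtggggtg
Ccng1, chr11:40755237-40755536, minus strand: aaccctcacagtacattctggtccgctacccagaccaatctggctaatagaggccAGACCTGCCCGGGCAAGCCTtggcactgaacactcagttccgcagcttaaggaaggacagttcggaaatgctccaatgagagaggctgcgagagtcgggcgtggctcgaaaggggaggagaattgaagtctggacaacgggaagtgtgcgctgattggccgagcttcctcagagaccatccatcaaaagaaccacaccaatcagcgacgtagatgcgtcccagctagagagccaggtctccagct
Mdm2, chr10:117710709-117711008, minus strand: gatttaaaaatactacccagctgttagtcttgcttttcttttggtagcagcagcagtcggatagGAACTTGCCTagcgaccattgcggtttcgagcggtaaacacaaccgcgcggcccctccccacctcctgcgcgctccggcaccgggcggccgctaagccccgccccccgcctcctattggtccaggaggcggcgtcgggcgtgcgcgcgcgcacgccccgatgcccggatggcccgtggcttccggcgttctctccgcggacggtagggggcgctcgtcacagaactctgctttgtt

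The full site of Cdkn1a, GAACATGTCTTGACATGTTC, begins 51 bases before the upstream start, which lies 2790 bases upstream of the other annotated Cdkn1a start, whose window held no match. The full site of Ccng1, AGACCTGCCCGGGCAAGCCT, begins 195 bases before its start. Each differs from the consensus at 1 of 20 positions. Mdm2 had 1 element, 186 bases before its start, and no full site, where 8.36% of all windows held an element. The windows of Cdkn2a, Cdkn2b, Bbc3, Btg2 and Phlda3 held none. That of Phlda3 ends in GAACATGT, which matches the start of an element but is cut by the window's edge. A match is a run of letters in these windows, and p53 binding was not measured.

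No member separated the genotypes at the threshold. Perp was the one gene of the 10 that lay lower in both homozygous arrays than in every other array, with a mean 1.71-fold below that of the other genotypes. For each of the other genes homozygote 2 lay within or above the range of the wild-type and heterozygous arrays, and Cdkn1a, Cdkn2a, Cdkn2b, Ccng1 and Phlda3 had their lowest level in homozygote 1. In the fit (limma, all 6 arrays, 22519 probe sets, Benjamini-Hochberg adjustment), 0 of the 10 genes and 0% of all probe sets passed an adjusted p of 0.05 in homozygotes against both other genotypes. At an unadjusted p under 0.05 there was 1 of the 10 genes, Perp, where 2.19% of the 11373 tested genes and 2.49% of probe sets passed. All 10 differences were below 0, as were 52.6% of those of all genes, and their median was -0.22 against -0.01 over all genes. Without homozygote 1 only 6 of the 10 were below 0, and the median was -0.046.

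**Figure D1:**
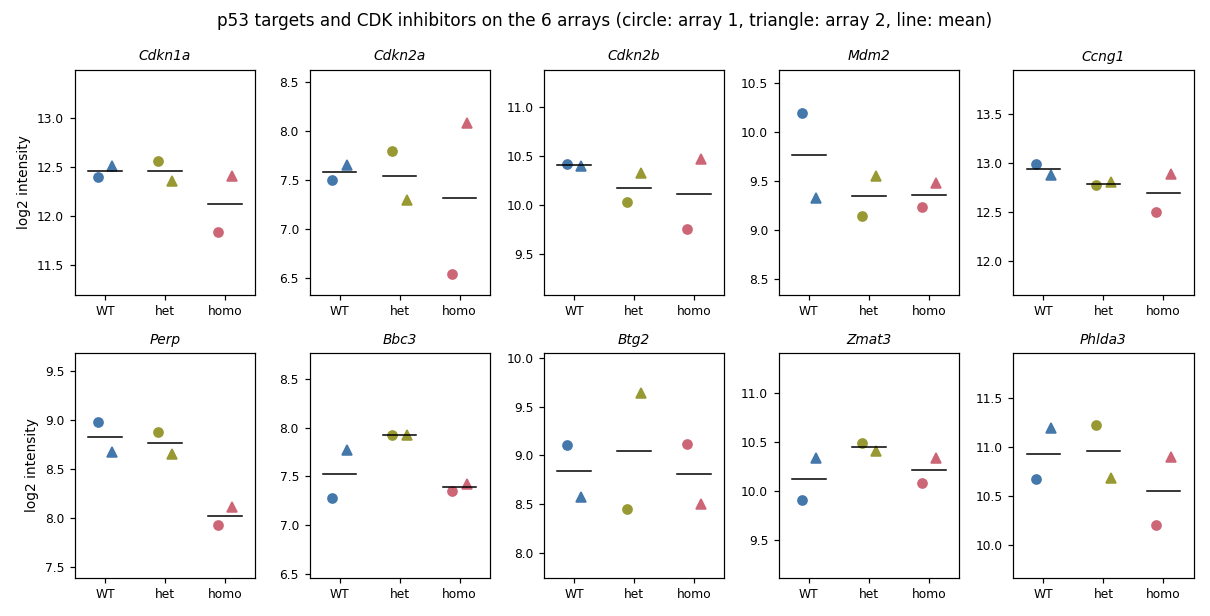
Log2 intensity (vertical axis, the same span of 2.3 units in each panel) of the 10 genes on the 6 arrays, by genotype; circles are array 1, triangles array 2 and lines the mean of the pair. Perp is low in both homozygous arrays, while Cdkn1a, Cdkn2a, Cdkn2b, Ccng1 and Phlda3 are lowest in homozygote 1.

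Cdkn1a, the p21 inhibitor of cyclin-CDK complexes that carries much of the p53 arrest, was measured by a pair of probe sets. The first had deposited intensities of 5801 and 5854 (wild type), 5822 and 5493 (heterozygotes), and 3186 and 5624 (homozygotes). Normalized, these were 12.40 and 12.51, 12.57 and 12.36, and 11.83 and 12.41. Homozygote 1 stood below the other 5 arrays, which lay close together, and the genotypes overlapped. The difference of homozygotes from the others was -0.34 (SE 0.23, 95% interval -0.90 to 0.23, limma adjusted p = 1), and it was -0.05 without homozygote 1. The other probe set gave -0.33 (SE 0.35), with homozygote 1 again lowest at 9.46 and the other arrays between 9.88 and 10.78.

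Cdkn2a, which encodes the INK4 inhibitor p16 and, from another first exon, Arf, had a single probe set. Which of the 2 transcripts it reports cannot be told here. It was at 7.51 and 7.66 in the wild-type embryos, 7.79 and 7.30 in heterozygous ones, and 6.54 and 8.09 in homozygous ones. The homozygous embryos thus held both the lowest and the highest level of the 6, a 2.92-fold gap, while the arrays of wild type differed by 1.11-fold and those of heterozygotes by 1.41-fold. The difference was -0.25 (SE 0.44, limma adjusted p = 1), and it turned to 0.52 without homozygote 1. Cdkn2b, the neighbouring gene for the INK4 inhibitor p15, was at 10.42 and 10.40, 10.03 and 10.33, and 9.75 and 10.47 in the same order. Its pattern in the homozygotes was the same, with the lowest level in homozygote 1 and the highest in homozygote 2 (difference -0.18, SE 0.26, and 0.17 without homozygote 1).

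Mdm2, the ligase that targets p53 for destruction, stood apart in a wild-type array. It was at 10.20 and 9.33 in wild-type cultures, 9.14 and 9.56 in heterozygous ones and 9.23 and 9.49 in homozygous ones, so wild type 1 lay above all other arrays. Another probe set also had wild type 1 (10.04) above the rest (8.84 to 9.35), and the last was below the intensity filter (1.88 to 4.60). The difference of homozygotes from the others was -0.20 (SE 0.30, limma adjusted p = 1) and 0.020 without wild type 1. Ccng1 encodes cyclin G1, which binds a phosphatase that acts on Mdm2. It lay at 12.99 and 12.87, 12.77 and 12.80, and 12.50 and 12.88, with homozygote 1 lowest, and differed by -0.17 (SE 0.20). Its other probe sets gave -0.07 (SE 0.22) and -0.15 (SE 0.23), with homozygote 1 lowest and wild type 1 highest in both.

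Perp, a membrane protein of desmosomes and an effector of p53-dependent cell death, was at 8.98 and 8.68 in wild-type cells, 8.88 and 8.65 in heterozygous ones and 7.93 and 8.11 in homozygous ones. Perp too had a single probe set, so no other could be set beside it. The homozygous arrays did not overlap the other 4, a pattern that 3.61% of tested genes had in this direction. The difference was -0.78 (SE 0.20, 95% interval -1.27 to -0.28, limma adjusted p = 1), or -0.81 (SE 0.24) against wild type and -0.74 (SE 0.24) against heterozygotes. With any single array left out it stayed between -0.87 and -0.69, and with a covariate for embryo sex it was -0.48 (SE 0.36). Epithelial markers were mostly dim, with 3 of 10 above the filter (Epcam, Krt8 and Krt18). Summed over the 10, intensities were 272 and 186 in the wild-type embryos, 177 and 193 in heterozygous ones and 184 and 152 in homozygous ones. Neural and glial markers, 5 of 6 above the filter, summed to 2278 and 1859, 1380 and 2072, and 484 and 497, with both homozygous arrays low. That sum was carried mostly by Stmn2 (8.46 and 8.08 in the homozygotes, 10.19 to 10.82 elsewhere), and 2 of the 5, Stmn2 and Erbb3, had both homozygotes below all other arrays, while Tubb3 was highest in homozygote 2 (7.23). No deposited value was at 0, and the part of either cell type in the Perp result was not tested.

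Bbc3 (Puma), a pro-apoptotic BH3-only protein, was at 7.28 and 7.77 in wild-type cultures, 7.92 and 7.92 in heterozygous ones and 7.36 and 7.43 in homozygous ones. The homozygotes lay below both heterozygotes but within the range of wild type. The difference from both other genotypes was -0.33 (SE 0.21) and that from heterozygotes alone -0.53 (SE 0.25, limma adjusted p = 1 for each). Phlda3, which restrains the survival kinase Akt, was at 10.67 and 11.20, 11.23 and 10.69, and 10.20 and 10.90. Homozygote 1 was again the lowest array and homozygote 2 lay between the others (difference -0.39, SE 0.31, and -0.04 without homozygote 1).

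Btg2, an antiproliferative gene that is also induced early by growth factors, varied within every genotype. It was at 9.11 and 8.57 in wild-type cells, 8.45 and 9.64 in heterozygous ones and 9.12 and 8.50 in homozygous ones, so every genotype held a higher and a lower array. The gap within heterozygotes was 2.28-fold, against a difference of homozygotes from the others of -0.13 (SE 0.39, limma adjusted p = 1). Its second probe set ordered the arrays in the same 2 groups and gave -0.05 (SE 0.33). Zmat3, an RNA-binding protein that acts in p53-dependent tumour suppression, was at 9.91 and 10.34, 10.49 and 10.41, and 10.08 and 10.34. Its range was narrow and the difference was -0.07 (SE 0.22).

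**Figure D2:**
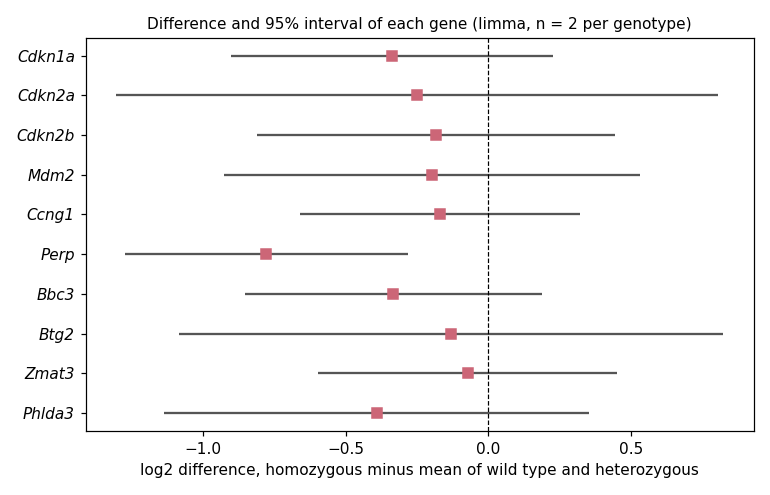
Log2 difference of homozygotes from the mean of wild type and heterozygotes for each gene (squares) with its 95% interval (lines), from the fit across all probe sets. All 10 squares lie below 0, and the interval of Perp, -1.27 to -0.28, is the only one of the 10 without 0.

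A covariate for embryo sex, which leaves fewer degrees of freedom and larger errors, moved several of these differences by over 1.5 times. Against both other genotypes Bbc3 was then at -0.76 (SE 0.35), Phlda3 at -0.75 (SE 0.55) and Zmat3 at -0.42 (SE 0.37), further from 0 than without it. Perp (-0.48), Cdkn2a (-0.14), Cdkn2b (-0.042) and Ccng1 (-0.0013) came closer to 0, and Mdm2 (0.62) and Btg2 (0.26) changed sign. Against heterozygotes alone, where sex and genotype coincide, Perp was at -0.32 (SE 0.49), Bbc3 at -1.14 (SE 0.47) and Zmat3 at -0.73 (SE 0.51), and against wild type Perp was at -0.65 (SE 0.29). None of these passed the threshold (limma adjusted p 0.599 to 1).

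The other comparisons also called 0 of the 10 genes and 0% of probe sets by limma's adjusted p. At an unadjusted p under 0.05, 1 of the 10 genes (Perp) passed in homozygotes against wild type (3.28% of genes and 3.8% of probe sets), 1 (Perp) against heterozygotes (1.94% and 2.17%), and 0 in heterozygotes against wild type (4.33% and 5.26%). Differences were below 0 for 9 of 10 against wild type (52.5% of genes), 9 of 10 against heterozygotes (52.9%) and 5 of 10 in heterozygotes against wild type (49.8%). These comparisons share arrays and are not independent of each other. Homozygotes lay wholly below wild type for 1 gene, Perp (14.3% of genes), and wholly below heterozygotes for 3, Perp, Bbc3 and Zmat3 (12.4% of genes), with Zmat3 at -0.24 (SE 0.25, and -0.11 without homozygote 1). With arrays centred on their medians instead, Zmat3 overlapped, and without normalization Cdkn1a also lay wholly below wild type. Heterozygotes lay wholly above wild type for Bbc3 (0.39, SE 0.25) and Zmat3 (0.33, SE 0.25), 2 of 10 where 17.6% of genes did so. Without wild type 1 these differences were 0.15 and 0.11, and without wild type 2 they were 0.64 and 0.54, while with the sex covariate they were 0.77 and 0.63. They lay wholly below wild type for Cdkn2b (-0.23, SE 0.30) and Ccng1 (-0.15, SE 0.23), again 2 of 10, against 18.4% of genes. Leaving out 1 array gave -0.38 (without heterozygote 2) to -0.085 (without heterozygote 1) for Cdkn2b and -0.21 (without wild type 2) to -0.087 (without wild type 1) for Ccng1, and the sex covariate gave -0.36 and -0.29. Without normalization Cdkn2b overlapped, and with median centring Cdkn1a too lay wholly below wild type in heterozygotes. The genes named in this paragraph were singled out after their values were seen.

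As a group, the 10 genes stood lowest in homozygote 1 and not in homozygote 2. The median deviation of the 10 genes from their own means was 0.12 and 0.15 in the wild-type embryos, 0.22 and 0.08 in heterozygous ones, and -0.39 and 0.07 in homozygous ones. Homozygote 1 was the lowest array for 6 of the 10 genes (Cdkn1a, Cdkn2a, Cdkn2b, Ccng1, Perp and Phlda3), where it was lowest for 24.3% of all genes, and the highest for 0, against 17.9% of all. The count was 8 with median centring and 7 without normalization. Homozygote 2 was lowest for 0 of the 10 (9.03% of all genes) and highest for 2, Cdkn2a and Cdkn2b (10.7%). Wild type 1 was lowest for 2, Bbc3 and Zmat3 (26.6% of all genes), and highest for 3, Mdm2, Ccng1 and Perp (24.4%). Heterozygote 1 was lowest for 2, Mdm2 and Btg2 (16.4%), and highest for 3, Cdkn1a, Zmat3 and Phlda3 (19%). Within homozygotes array 1 lay below array 2 for 9 of the 10, all but Btg2, where 55% of all genes did so, while array 1 was the lower for 5 of 10 in wild type and 5 of 10 in heterozygotes.

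A list of 33 other p53 targets was read beside the 10. Of 30 that passed the filter, 0 were called in either direction by limma. In homozygotes 22 lay lower and 8 higher, where 52.6% of all genes lay lower. The median difference was -0.14 against -0.01 for all genes. The median deviation of the 30 by array was lowest in homozygote 1 (-0.37) and 0.13 in homozygote 2. Homozygote 1 was the lowest array for 14 of the 30 (24.3% of all genes) and wild type 1 for 9 (26.6%). Without homozygote 1 the count lower was 10 of 30 and the median 0.080, against a median of 0.023 for all genes. The death receptor Fas differed by 0.07 (SE 0.43), the stress sensor Gadd45a by -0.01 (SE 0.23), and the sestrins, which restrain mTORC1, by 0.45 (SE 0.34, Sesn1) and -0.20 (SE 0.26, Sesn2). Trp53inp1, a cofactor of p53, differed by -0.14 (SE 0.28). Pmaip1 (Noxa), a BH3-only protein like Bbc3, was at 10.30 in wild type 1 and 7.96 to 8.94 elsewhere, so it shared the high wild type 1 of Mdm2 (difference -0.57, SE 0.54).

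**Figure D3:**
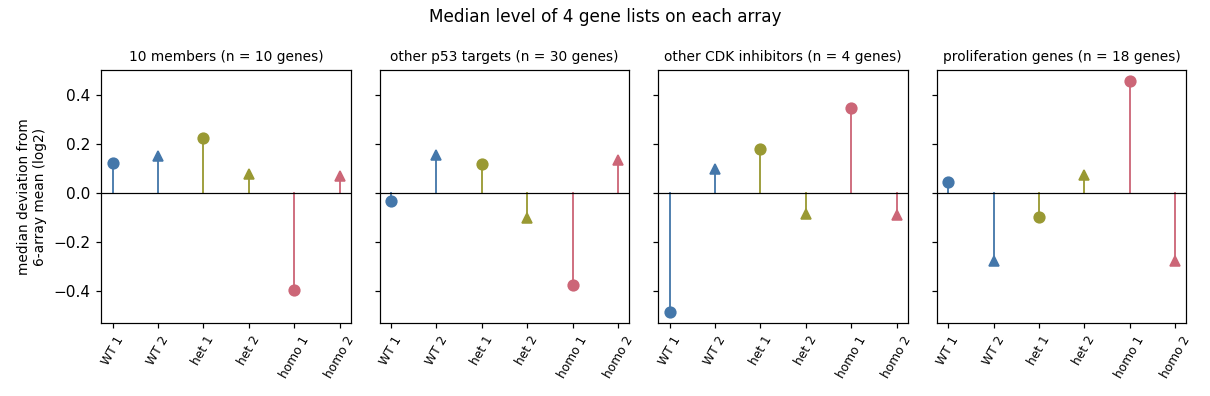
Median deviation from the 6-array mean (log2, vertical axis) of 4 gene lists on each array, with circles for array 1 and triangles for array 2 of a genotype. The 10 members and the other p53 targets are lowest in homozygote 1 (-0.39 and -0.37), where the proliferation genes are highest (0.46).

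Of 14 genes for p53 and its regulators, 13 had an annotated probe set, all but Trp53. All 13 passed the filter, with 0 called, 7 higher, 6 lower and a median of 0.04. Mdm4, the partner of Mdm2, differed by 0.31 (SE 0.33) and the p53 pathway phosphatase Ppm1d by -0.15 (SE 0.20). Trp53 itself and Bax were not analysed here. Of the regulators of the INK4 and Arf locus, 14 of 16 passed, with 0 called, 9 higher and 5 lower (median 0.04). The Polycomb proteins that repress this locus, Bmi1 and Ezh2, differed by -0.04 (SE 0.21) and 0.23 (SE 0.28).

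The 4 other CDK inhibitors had a different order of arrays. Cdkn1c (p57), of the same Cip/Kip family as Cdkn1a, was at 8.37 and 9.09 in wild-type cultures, 8.12 and 8.45 in heterozygous ones and 9.45 and 9.11 in homozygous ones. Both homozygotes lay above the other 4 arrays, though by a narrow margin over wild type 2 (3.16% of genes were separated in this direction), and the difference was 0.78 (SE 0.27, limma adjusted p = 1). Cdkn1b (p27) differed by 0.11 (SE 0.26), Cdkn2c (p18) by 0.15 (SE 0.32) and Cdkn2d (p19) by 0.02 (SE 0.23). In all, 4 of 4 differences were above 0 and 0 of 4 were called. Without homozygote 1, and likewise without wild type 1, 3 of the 4 were below 0. Cdkn1b and Cdkn1c were highest in homozygote 1, the array with the lowest Cdkn1a, and Cdkn1b and Cdkn2c were lowest in wild type 1.

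**Figure D4:**
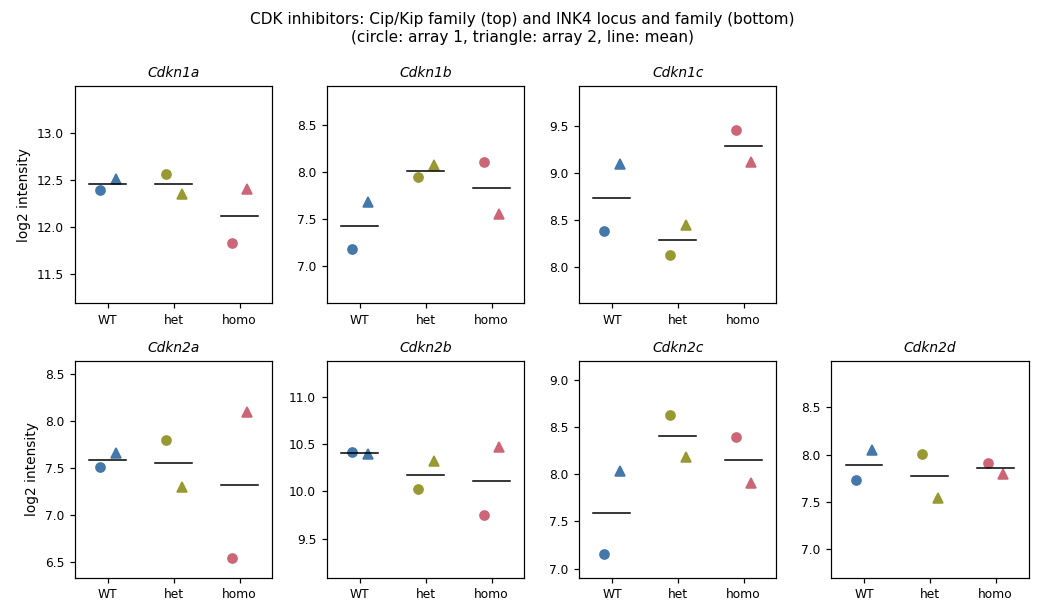
Log2 intensity of the Cip/Kip genes Cdkn1a, Cdkn1b and Cdkn1c (top) and of Cdkn2a, Cdkn2b, Cdkn2c and Cdkn2d (bottom) on the 6 arrays, by genotype, with the same span in each panel; lines are means of 2 arrays. Homozygote 1 (circle) is lowest for Cdkn1a, Cdkn2a and Cdkn2b, whereas Cdkn1c is at 9.45 and 9.11 in the homozygotes and at most 9.09 elsewhere.

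Of the cyclins, CDKs and Rb and E2F family genes, on which these inhibitors act, 15 of 16 passed the filter, with 0 called, 7 higher and 8 lower (median -0.07). Cyclin D1 (Ccnd1) differed by -0.54 (SE 0.32), cyclin D2 (Ccnd2) by -0.23 (SE 0.20), Cdk4 by 0.13 (SE 0.19), Cdk6 by -0.10 (SE 0.23) and Rb1 by -0.22 (SE 0.20). Of 20 proliferation genes 18 passed, with 0 called, 14 higher, 4 lower and a median of 0.16. Their median deviation was 0.04 and -0.28 in wild-type cells, -0.10 and 0.07 in heterozygous ones and 0.46 and -0.28 in homozygous ones, which put them highest in homozygote 1, where the 10 genes were lowest. The proliferation marker Mki67 was at 9.58 there and at 7.79 to 8.88 elsewhere (difference 0.40, SE 0.48). Without homozygote 1, 17 of the 18 proliferation genes lay lower in homozygotes, with a median of -0.24. Macrophage markers were also highest in that array, as given above, and the part of proliferation or of macrophage RNA in the low values of the 10 genes was not tested.

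Genes most like a member were found by the root mean square difference between the deviations of both genes from their own means over the 6 arrays. For Cdkn1a these were Ubxn6 (0.04), Csnk1g2 (0.04) and Tmem127 (0.05), where the median over all tested genes was 0.33. Each had its lowest level in homozygote 1, as Ubxn6 shows with 8.31 there and 8.75 to 8.96 elsewhere. For Cdkn2a they were Acvrl1 (0.13), Tulp3 (0.14) and Ptp4a3 (0.14), against a median of 0.53. For Perp they were Nwd1 (0.06), Pnmt (0.11) and Rin3 (0.14), against 0.45, and Nwd1 was at 5.81 and 5.98 in the homozygotes and 6.47 to 6.84 elsewhere. None of these 9 genes was in the lists of p53 targets or cell cycle genes used here.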

How the data were processed

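Total RNA (2 µg) of 6 fibroblast cultures was labelled with biotin and hybridised to Affymetrix arrays, per the labels' protocols. The deposited values were read as linear probe set intensity, since all were above 0 and reached 15930 to 17154; the authors' probe summary and array scaling were not given in the sources used here. Array medians were 21.9 to 27.3. Values were converted to log2(intensity + 1.78), the pseudocount being the 10th percentile, and quantile normalized because log2 medians spanned 0.29, above a limit of 0.1. On this scale, fold changes of dim probe sets come out too small. After removal of 64 controls, the upper 50% by mean were tested (limma 3.58.1, R 4.3.3, a mean per genotype, 3 residual and 3.28 prior degrees of freedom), with Benjamini-Hochberg adjustment over 22519 probe sets and a threshold of 0.05. Probe sets below the filter were fitted without it. The fit was tested on simulated data. Symbols came from the platform annotation, updated through GRCm38.p6; 162 symbols had no match there.

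The genes and lists were chosen with earlier results of these data known. All probe sets of the 10 genes are reported; of the other lists a set of well-known genes was named whatever its values, and of like genes the 3 nearest, leaving out predicted genes. The labels give 2 embryos per genotype, so p-values measure the spread between embryos and cultures, and this number limits the precision. Alternatives were median centring, no normalization, a pseudocount of 16, no filter, each array left out, the replicate number as a block, a covariate from Xist, Eif2s3y, Uty and Kdm5d, and the mean of a gene's probe sets. No deposited sample column was left out.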

Additional observations from a re-analysis of the deposited data

How the results depend on the processing

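None of the 10 genes passed the threshold under any of the 13 alternatives in the 4 comparisons, with a lowest limma adjusted p of 0.297. In homozygotes against both other genotypes, 119 of 130 refitted differences kept their sign and 11 did not. In the comparisons of pairs of genotypes 12 (against wild type), 14 (against heterozygotes) and 19 (heterozygotes against wild type) of 130 each did not. Some of these refits could not change a sign. Leaving out the filter or adding the replicate block leaves each difference as it was. So does leaving out an array of the third genotype in a comparison of a pair. Taking the mean of a gene's probe sets changes nothing for genes with a single one. These were Cdkn2a, Cdkn2b, Perp, Bbc3, Zmat3 and Phlda3. With the covariate for embryo sex Mdm2 was at 0.62 (SE 0.39) and Btg2 at 0.26 (SE 0.71), and 1 probe set, of Egfl6, was called in heterozygotes against wild type. With arrays left out in turn, Btg2 lay between -0.44 and 0.18, Mdm2 between -0.42 and 0.020, Zmat3 between -0.20 and 0.056, Ccng1 between -0.36 and 0.023, Cdkn2a between -1.02 and 0.52 and Cdkn2b between -0.54 and 0.17. The count of the 10 genes below 0 lay between 6 (without homozygote 1) and 10, and their median between -0.46 (without homozygote 2) and -0.046 (without homozygote 1). The count of called probe sets lay between 0 and 2 in homozygotes against both other genotypes (2 without wild type 2), between 0 and 3 against heterozygotes (3 without wild type 1, 2 without wild type 2) and between 0 and 3 in heterozygotes against wild type (3 without wild type 1). Each of these was Eif2s3y, Kdm5d or a probe set with no symbol, and none was a member. For the other p53 targets, an analysis added after seeing the data, the median lay between -0.41 (without homozygote 2) and 0.080 (without homozygote 1) and the count lower between 10 and 25 of 30. For the other CDK inhibitors, likewise added, the median lay between -0.061 (without homozygote 1; -0.036 without wild type 1) and 0.39 (without homozygote 2) and was -0.36 with the sex covariate, where 3 of 4 lay lower. For the proliferation genes, likewise added, the median lay between -0.24 (without homozygote 1) and 0.54 (without homozygote 2) and the count lower between 0 and 17 of 18, and it was 7 without normalization. No scaling moved the median of all genes by 0.1 or more. Deviations of same-numbered arrays correlated at -0.36 between wild type and heterozygotes. Between homozygotes and wild type the correlation was -0.135, and between homozygotes and heterozygotes -0.143. With 2 arrays per genotype this cannot exclude a pairing by number or a shared batch. With the replicate number as a block 0 probe sets were called in each comparison, as without it. Each genotype has 1 array of each number, so the block cannot move a difference. The median of the 10 genes was therefore -0.22 with it as without it.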
